A study of Mus musculus with 2 samples.

Results

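The 5-hydroxymethylcytosine (5hmC) peaks of mouse chromosome 11 are described here, in embryonic stem (ES) cells of strain 129SvEv. The peaks were chosen by position: every peak of either deposited list on chromosome 11 whose start lies above base 3200000 of build mm9, which leaves out a tag-rich, satellite-like stretch near the centromere. The rule took 6319 of the 121661 peaks of both lists (5.19%), of which 3103 of 57827 (5.37%) were in one list and 3216 of 63834 (5.04%) in the other. The lists hold only regions past the peak caller's p cutoff, so tag counts had already selected what could be a member, and a place without a peak is a place not called.

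One list came from 1 library of cells kept for 24 h in 100 µM ascorbic acid (AA), which is vitamin C. The other came from 1 library whose label names no incubation and which the series' design places without AA. No genotype beyond the strain is given for either. Genomic DNA was sonicated, and fragments with 5hmC were pulled down through a biotin tag. The header of each list carries the run name of the other sample. The lists are named after the record here, as the AA list and the no-AA list, and every direction given for AA against no AA would be the opposite one should the headers hold. Neither group has a second library, so spread between cultures is unknown and no test was made. The 95% intervals are exact for shares (Clopper-Pearson), counts (Poisson), ratios of counts and odds ratios (conditional) and medians (order statistics). For a difference of 2 shares or medians they were combined from both intervals. They cover counting error or the spread over peaks only.

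5hmC is made when Tet dioxygenases oxidise 5-methylcytosine, and it is a step on the way to unmethylated cytosine. These enzymes need iron and 2-oxoglutarate, and ascorbic acid is known to aid enzymes of this class as a reductant. In ES cells 5hmC is known to lie in gene bodies and at distal regulatory elements and to be scarce at active CpG-rich promoters. Chromosome 11 is known as a gene-rich mouse chromosome. In a RefSeq table of another build (GRCm38.p6), it carries 1609 protein-coding genes, or 13.2 per Mb, the second highest of 19 autosomes after chromosome 7 (13.97 per Mb). Among them are Trp53 (the p53 tumour suppressor), Brca1 (DNA repair), Stat3 (which transmits the LIF signal that keeps ES cells undifferentiated), Sox9 (a regulator of cartilage and gonad development), the alpha-globin gene Hba-a1 and the developmental regulators Hoxb1 and Hoxb9. Chromosomes 3, 6 and 12, the set used for comparison, carry 2788 such genes together, or 6.49 per Mb. No annotation of mm9 was used here, so single peaks carry no gene names and no sequences are shown.

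The AA library held 11907082 tags after duplicate removal and the no-AA library 18398162. The fragment lengths that the caller worked with were 229 and 165 bp. Depth, fragment length and label differ together between the lists and cannot be told apart.

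Chromosome 11 was dense in 5hmC peaks. The AA list had 26.2 peaks per Mb and the no-AA list 27.1, and in each list only chromosomes 8 and 1 of the 19 autosomes were denser. On chromosomes 3, 6 and 12 pooled the densities were 19.9 and 21.4 peaks per Mb. Chromosome 11 was thus 1.31 times as dense in the AA list (95% interval 1.26 to 1.37) and 1.26 times in the other (1.21 to 1.32). The compared set includes the sparsest autosome of each list. It was chromosome 12 in the AA list (19.3 per Mb) and chromosome 3 in the other (20.7). Against all other autosomes the log2 density ratio was 0.21 (0.15 to 0.26) in the AA list and 0.11 (0.06 to 0.16) in the other. Against the pooled set it was 0.39 and 0.34. The left-out start was taken off the length of chromosome 11 alone. With the same start left out of the pooled chromosomes, a step added later, the ratio was 0.36 (0.30 to 0.42) and 0.31 (0.25 to 0.37). The ratio against all other autosomes and the covered shares below were not computed in that way. AA peaks covered 3.94 Mb, or 3.32% of the stretch, against 2.26% of the pooled chromosomes, and no-AA peaks 2.97 Mb, or 2.51% against 1.82%. The lists had 1.23 Mb of this in common, which was 31.3% of the AA and 41.4% of the no-AA length.

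The excess over the pooled chromosomes lay in the weaker peaks. Of the AA peaks on chromosome 11, 554 (17.9%) reached a p of at most 1e-10 by the authors' caller, against 24.0% on the pooled chromosomes, an odds ratio of 0.69 (0.62 to 0.77). For the no-AA list it was 443 peaks (13.8%) against 18.9%, an odds ratio of 0.69 (0.61 to 0.77). Counting those strong peaks alone, the density of chromosome 11 over the pooled chromosomes was -0.03 on the log2 scale in the AA list (-0.17 to 0.10) and -0.12 in the other (-0.27 to 0.03). Counting peaks of at least 10-fold enrichment, it was -0.37 (-0.52 to -0.22) and -0.43 (-0.64 to -0.22). The direction of the density difference therefore depended on the strength asked for. Over whole chromosomes, gene density and peak density were weakly related. Across the 19 autosomes their Pearson correlation was 0.20 in the AA and 0.07 in the no-AA list (Spearman 0.32 in both), as a description of single libraries.

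**Figure D1:**
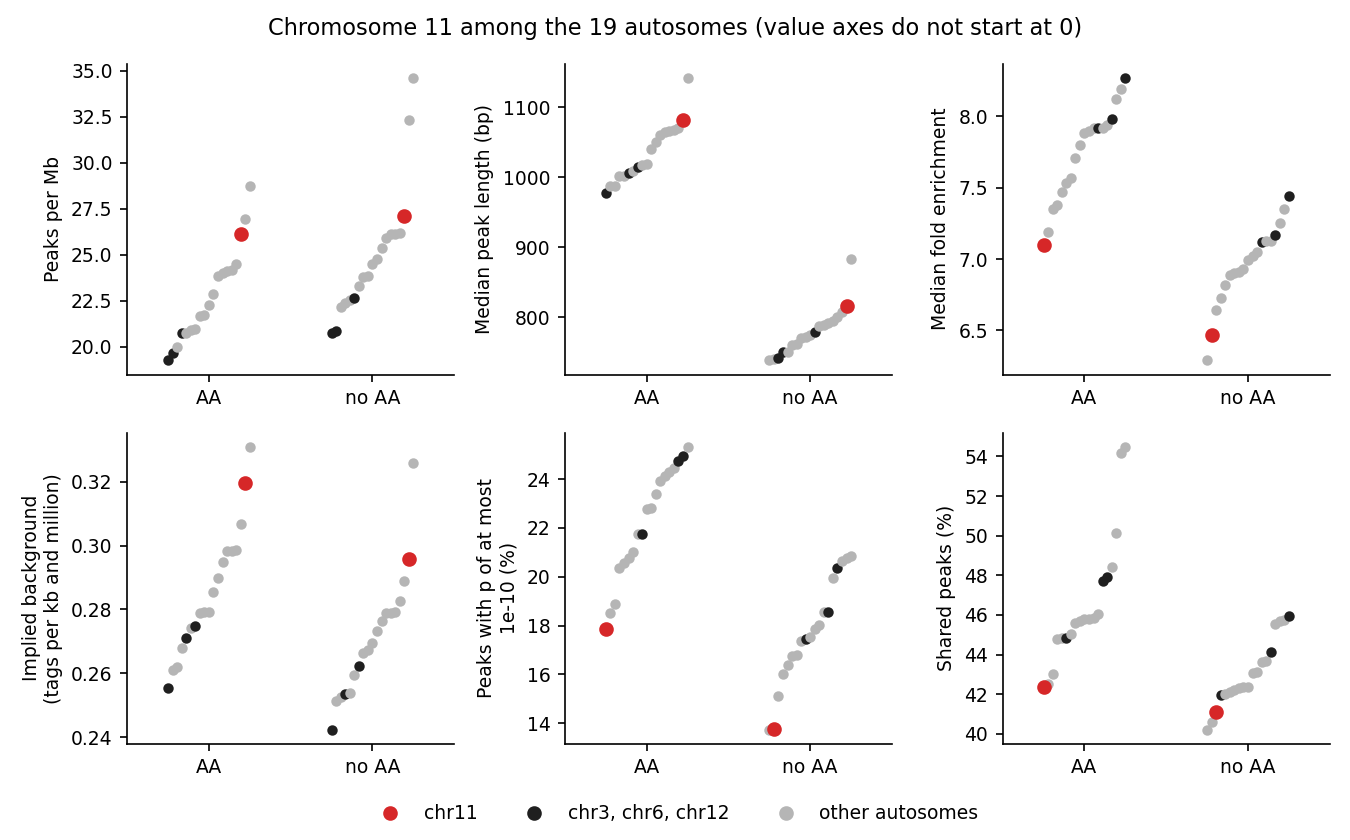
Values of each of the 19 autosomes in the AA and no-AA lists: peaks per Mb, median peak length in bp, median fold enrichment, implied background in tags per kb and 1000000 kept tags, share of peaks with a p of at most 1e-10 and share of shared peaks. Each point is 1 chromosome, ordered by value within a list, and chromosome 11 (red) stands near the top in density, length and background and near the bottom in fold, strong peaks and shared peaks.

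The peaks of chromosome 11 were long and had a high implied background. The median AA peak was 1082 bp long (interval 1066 to 1108; quartiles 828.5 and 1522 bp), against 996 bp (986 to 1007) on the pooled chromosomes. The median no-AA peak was 816 bp long (803 to 828), against 755 bp (748 to 763). In both lists chromosome 11 ranked second in length after chromosome 8. Its peaks also held more tags, with medians of 30 and 29 tags in the AA and no-AA lists against 26 and 26. The authors' fold enrichment went the other way. Its median on chromosome 11 was 7.10 (6.96 to 7.28) in the AA list, the lowest of the 19 autosomes, against 8.04 (7.97 to 8.15) on the pooled chromosomes. For the other list it was 6.47 (6.38 to 6.57) against 7.18 (7.13 to 7.25), with chromosome 8 alone lower. Dividing a peak's tags per kb and 1000000 kept tags by its fold gives an implied background. This quotient had a median of 0.320 in the AA list against 0.267 on the pooled chromosomes, 1.20 times as high. Peaks of the no-AA list had 0.296 against 0.252, 1.17 times as high. The tag density of the peaks themselves was closer, in the same unit at 2.26 against 2.17 for the AA list and 1.91 against 1.86 for the other. Peaks were called with no control, so the caller's local background came from tags of the same library. Tags of neighbouring peaks can count in it, and the quotient is not a measured background. The number of copies of chromosome 11 in these cells was not measured, and its part in these densities and backgrounds was not tested.

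Along the chromosome, peaks came in blocks. In the 117 windows of 1 Mb that lie wholly inside the stretch, the AA list had between 1 and 53 peaks (median 28, quartiles 18 and 36) and the no-AA list between 2 and 51 (median 28, quartiles 19 and 35). The variance over windows was 5.28 and 4.77 times the mean, less than the 6.70 and 5.87 times on the pooled chromosomes. Windows next to each other were alike, with a correlation of 0.56 in the AA and 0.54 in the no-AA list. Few windows were nearly empty: 10 AA and 8 no-AA windows had under 10 peaks (8.55% and 6.84%), against 20.9% and 16.5% of the 417 windows of the pooled chromosomes. The correlation between the lists across the 117 windows was 0.88 (Pearson) and 0.87 (Spearman), against 0.90 and 0.92 on the pooled chromosomes. Neighbouring peaks lay a median of 21.1 kb apart in the AA list and 21.5 kb in the other, against 25.3 and 24.8 kb on the pooled chromosomes. Windows of 1 library share its depth and are not replicates, so these values are descriptions.

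**Figure D2:**
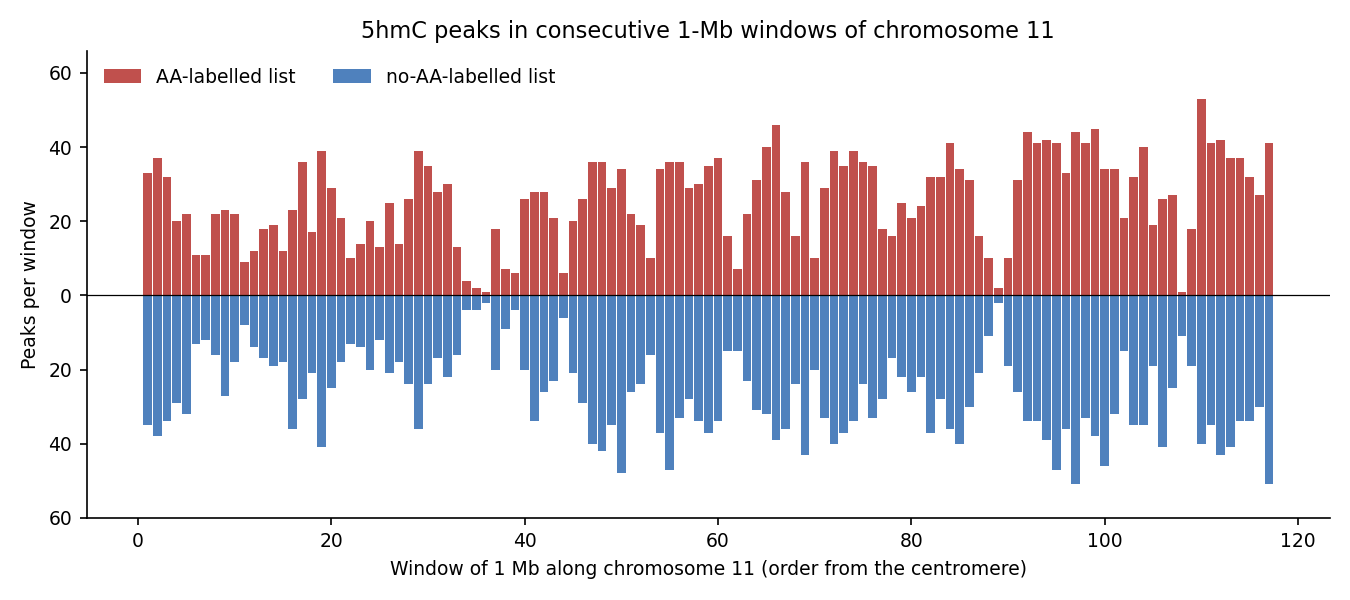
Number of AA (bars upward) and no-AA peaks (bars downward) in each of 117 consecutive 1-Mb windows of chromosome 11, in order from the centromere. The lists rise and fall together, from windows of 1 and 2 peaks to windows of 53 and 51.

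The longest run of windows above the median of 55 peaks over both lists spanned 94 to 105 Mb, where 11 windows held 430 AA and 416 no-AA peaks, or 39.1 and 37.8 per Mb. The next lay at 113 to 121 Mb, with 310 and 308 peaks in 8 windows. The longest runs at or below the median were at 7 to 19 Mb (201 and 223 peaks in 12 windows) and at 34 to 44 Mb (135 and 118 peaks in 10 windows). The 4 fullest windows all lay beyond 90 Mb. The window starting at 100 Mb held 44 AA and 51 no-AA peaks, that at 113 Mb 53 and 40, that at 120 Mb 41 and 51, and that at 98 Mb 41 and 47. Next came a tie at 85 peaks over both lists, between the windows at 69 Mb (46 and 39) and 115 Mb (42 and 43).

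The 5 emptiest windows included 3 in a row, starting at 37, 38 and 39 Mb, which held 4, 2 and 1 AA and 4, 4 and 2 no-AA peaks. The window at 42 Mb, parted from them by a window of 18 and 20 peaks, held 6 and 4, and the window at 92 Mb held 2 and 2. Counting the windows in that order, 3 of 4, 2 of 2, 1 of 1, 3 of 6 and 2 of 2 AA peaks were shared. Of the no-AA peaks, 3 of 4, 2 of 4, 1 of 2, 3 of 4 and 2 of 2 were. On the whole stretch 42.3% of the AA and 41.1% of the no-AA peaks were shared. These windows were picked for their low numbers and hold too few peaks to compare. In or across the edges of these windows lay the 5 longest stretches without a peak in either list. The longest ran over 1.16 Mb (chr11:38723252-39882695) and the next over 0.845 Mb (chr11:92556636-93401496). The others were chr11:91992680-92455601 (0.463 Mb), chr11:38296587-38721819 (0.425 Mb) and chr11:41971419-42365577 (0.394 Mb).

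Few windows differed between the lists beyond the scaling of the list totals. Among the 108 windows with at least 20 peaks over both lists, 6 (5.56%) had over 1.5 times as many AA as no-AA peaks after scaling, where 2.96% of such windows of the autosomes and chromosome X did. The AA number was over 1.5-fold lower after scaling in 3 windows (2.78%), against 6.30%. The largest scaled ratio of the 6, 1.82, was at 34 Mb (28 against 17 peaks, unscaled ratio 1.65, interval 0.871 to 3.21). The 3 low windows were at 65 Mb (7 against 15), 73 Mb (10 against 20) and 93 Mb (10 against 19), named with that at 34 Mb after their values were seen. Counting error is wide at this size. Ranked by the difference in scaled peak number rather than by ratio, the 3 largest excesses were in the windows at 113 Mb (53 against 40 peaks, ratio 1.33, interval 0.862 to 2.05), 78 Mb (36 against 24, ratio 1.5, 0.871 to 2.63) and 33 Mb (35 against 24, ratio 1.46, 0.843 to 2.56). The 3 largest deficits by the same measure were at 109 Mb (26 against 41, ratio 0.634, 0.372 to 1.06), 19 Mb (23 against 36, ratio 0.639, 0.362 to 1.11) and 53 Mb (34 against 48, ratio 0.708, 0.443 to 1.12). All 6 intervals hold the ratio of the whole chromosome, 0.965. The window at 111 Mb, chosen after its values were seen, held 1 AA and 11 no-AA peaks, a ratio of 0.0909 (0.00211 to 0.626), with none of them shared. It is 1 of 117 windows, and its interval is not adjusted for that choice.

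For the whole stretch the ratio of AA to no-AA peaks was 0.965 (0.918 to 1.01), the highest of the 19 autosomes. The others ran from 0.831 on chromosome 8 to 0.949 on chromosome 3. With the lists exchanged, as the headers have it, the ratio would be 1.04 (0.986 to 1.09), the lowest of the 19. Against the pooled chromosomes (0.929) the odds ratio was 1.04 (0.98 to 1.10), an interval that includes 1. Against all other autosomes the log2 ratio of ratios was 0.09 (0.02 to 0.17). In segments of 10 Mb the ratio ranged from 0.803 (0.563 to 1.14) in the short last segment, from 120 Mb, to 1.15 (0.929 to 1.42) between 30 and 40 Mb. Among strong peaks the order of the lists was the opposite. At a p of at most 1e-10 the ratio was 1.25 (1.10 to 1.42), with 554 AA against 443 no-AA peaks, and on the pooled chromosomes it was 1.18 (1.11 to 1.26). At 10-fold enrichment or more, 451 AA peaks faced 226 no-AA peaks, a ratio of 2.00 (1.70 to 2.35) against 1.92 (1.78 to 2.06). Returning to all peaks, the interval of the segment from 50 to 60 Mb (292 against 348 peaks, ratio 0.839, 0.716 to 0.983) lay below 1. It holds the ratio of the whole stretch, 0.965. The segment is 1 of 13, and its interval is not adjusted for that choice.

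The distal part of the chromosome differed from the proximal part in the make-up of its peaks. Beyond 60 Mb, a boundary set after seeing the data, the density was 29.9 AA and 30.7 no-AA peaks per Mb, against 22.0 and 23.2 before it. Strong peaks (p of at most 1e-10) were not denser there, at 4.40 and 3.40 per Mb against 4.96 and 4.10. The median AA peak was 1172 bp long beyond 60 Mb and 998 bp before it, and the median fold was 6.55 against 7.92. The no-AA lengths were 859.5 and 764 bp and the folds 6.08 and 7.12. The implied background was 0.357 against 0.270 in the AA list and 0.323 against 0.257 in the other.

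Segments of 10 Mb showed a similar trend, with exceptions. The lowest implied background was between 10 and 20 Mb, at 0.217 and 0.213 in the AA and no-AA lists, and the highest between 110 and 120 Mb, at 0.398 and 0.391. The median fold fell between these segments from 8.91 to 5.97 and from 8.00 to 5.34. The median length ranged from 882.5 bp (20 to 30 Mb) to 1400 bp (from 120 Mb) in the AA list, and from 688 bp (10 to 20 Mb) to 989 bp (110 to 120 Mb) in the other. Among the exceptions was the first segment, up to 10 Mb, with a background of 0.328 and 0.300 and folds of 6.86 and 6.36. Another was the segment from 80 to 90 Mb, where the AA background was 0.303, the fold 7.33 and the length 986 bp, against 0.358, 6.62 and 1126 bp between 70 and 80 Mb. These are medians over 61 to 348 peaks of 1 library each, and the segments have no replicate.

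**Figure D3:**
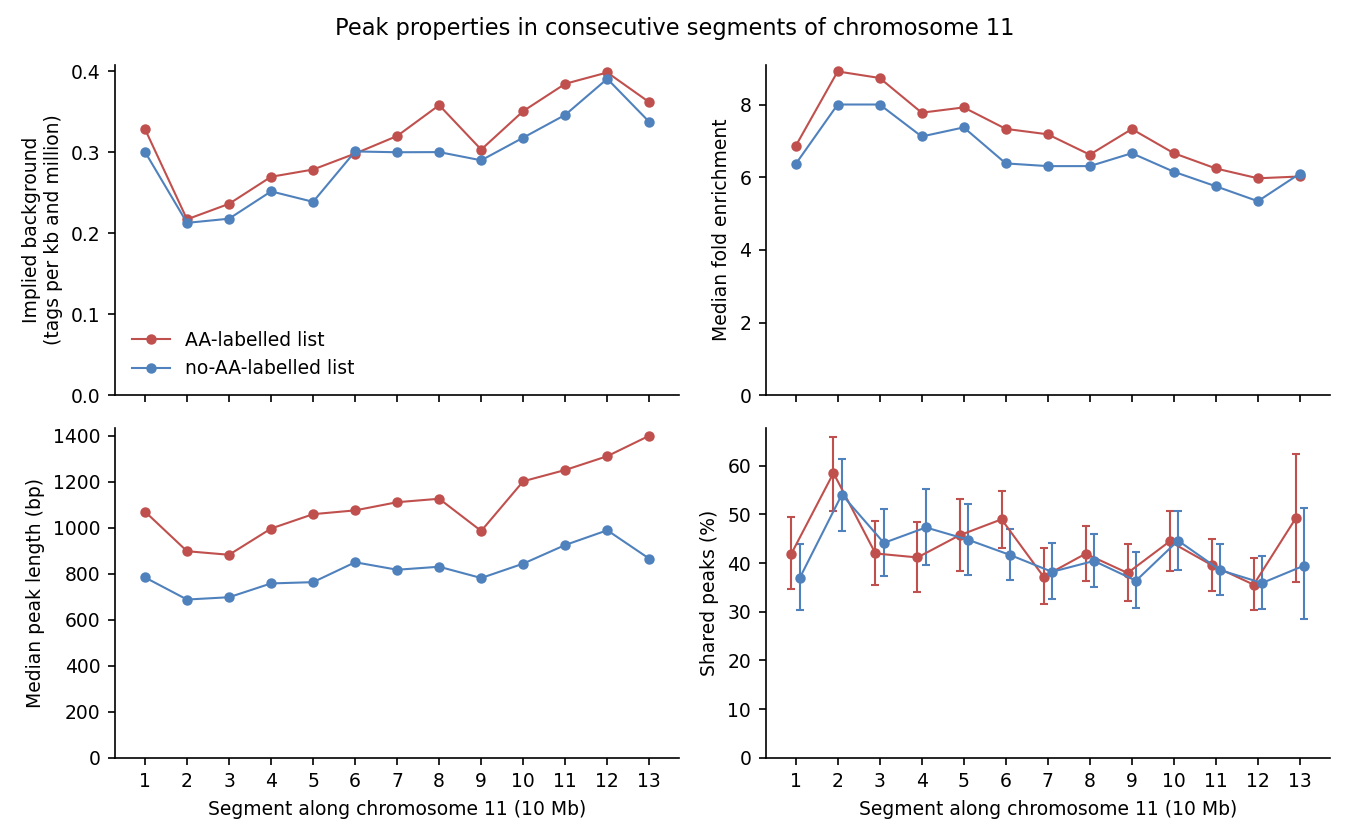
Median implied background (tags per kb and 1000000 kept tags), median fold enrichment, median peak length (bp) and share of shared peaks (%, with 95% Clopper-Pearson bars) in 13 consecutive 10-Mb segments of chromosome 11, the first and last of which are shorter. Background is lowest between 10 and 20 Mb (0.217 and 0.213) and highest between 110 and 120 Mb (0.398 and 0.391), and the AA fold falls from 8.91 to 5.97 between the same segments.

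Peaks of peak-rich windows had a lower fold and a smaller share of strong peaks than those of peak-poor ones, but were longer and held more tags. Ranked by peaks over both lists, the poorest 39 windows (3 to 41 peaks each) had a median fold of 9.05 in the AA and 8.00 in the no-AA list. The richest 39 (67 to 95 peaks each) had 6.34 and 5.88. The median AA peak was 1239 bp long with 36 tags in the richest windows, against 935.5 bp and 23 tags in the poorest. In the no-AA list it was 914 bp and 34 tags, against 692 bp and 23 tags. The implied backgrounds of the 2 lists were 0.227 and 0.218 in the poorest windows and 0.372 and 0.338 in the richest. In the AA list, 32.4% of peaks in the poorest windows and 13.3% in the richest had a p of at most 1e-10. The richest windows held 1491 AA peaks and the poorest 494, whereas their strong peaks numbered 198 and 160. The number of strong peaks thus differed less between these groups of windows than the number of all peaks. The windows were ranked by all peaks, most of which fell short of 1e-10, so this contrast is largely built into the ranking.

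Of the AA peaks on chromosome 11, 1314 overlapped a no-AA peak by at least 1 bp, or 42.3% (40.6% to 44.1%), where 47.5% of all AA peaks did. Of the no-AA peaks, 1322 were shared, or 41.1% (39.4% to 42.8%), where 43.6% of that list were. The first share was the lowest of the 19 autosomes and the second ranked 17th. On the pooled chromosomes the shares were 47.0% (45.9% to 48.1%) and 44.2% (43.2% to 45.2%). The odds ratios of chromosome 11 against them were 0.83 (0.76 to 0.90) and 0.88 (0.81 to 0.96). Against chromosome 12 alone the differences were smaller, at -2.49 percentage points (-5.18 to 0.195) and -0.86 (-3.46 to 1.73).

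Shared peaks had higher scores than unshared ones, and chromosome 11 had a smaller part of its peaks in the strongest class. Whether this accounts for its lower shared share was not tested. The median score (10 times the −log10 of p) was 79.1 for shared and 63.8 for unshared peaks of the AA list. The same medians of the no-AA list were 77.7 and 61.3. When each list was divided into 5 classes of equal size by score over the whole genome, the strongest class held 14.6% of the AA and 15.3% of the no-AA peaks of chromosome 11, against 21.2% and 20.3% on the pooled chromosomes. Within each class the intervals of chromosome 11 and the pooled chromosomes overlapped in both lists. The share on chromosome 11 was the lower one in 4 of the 5 AA and 3 of the 5 no-AA classes. From weakest to strongest the AA shares on chromosome 11 were 26.7%, 33.5%, 38.5%, 49.3% and 75.1%, and on the pooled chromosomes 29.2%, 31.7%, 42.1%, 50.7% and 78.6%. In the no-AA list they were 25.8%, 27.9%, 35.4%, 51.8% and 75.5%, against 25.3%, 29.6%, 37.1%, 48.6% and 79.3%. Weighted to the pooled chromosomes' mix of classes, a step added after seeing the data, the difference shrank from -4.66 to -1.88 percentage points in the AA list and from -3.07 to -0.73 in the other. With both lists cut to peaks of a p of at most 1e-10, which drops partners too, the differences were larger, at -10.5 points (-15.0 to -5.92) and -10.2 (-15.4 to -4.85).

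**Figure D4:**
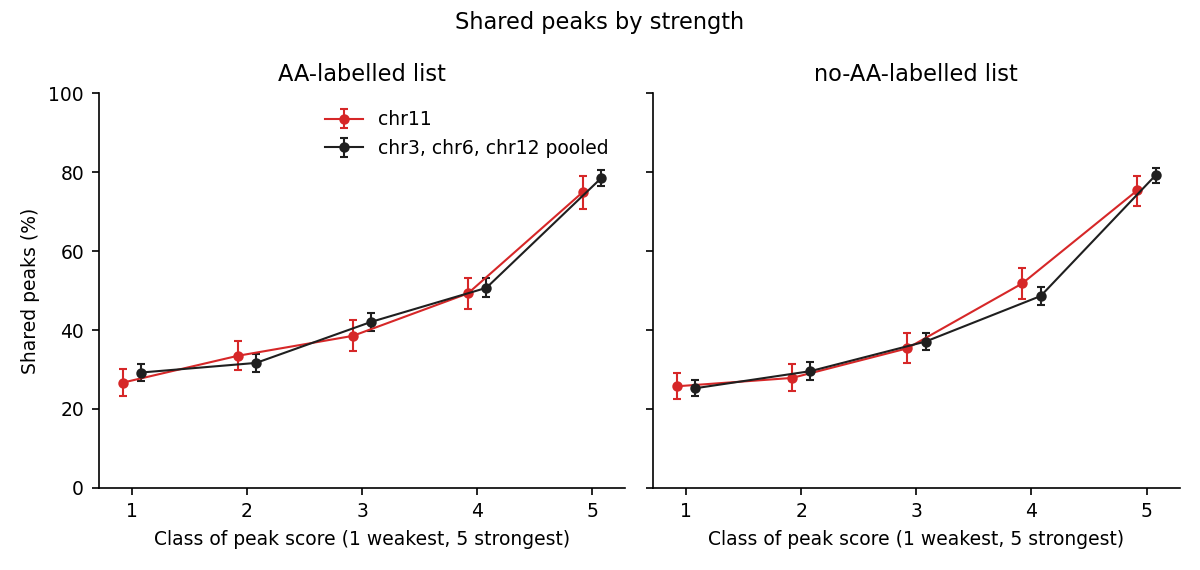
Share of peaks that overlap a peak of the other list (%, with 95% Clopper-Pearson bars) in 5 classes of peak score, for chromosome 11 (red) and chromosomes 3, 6 and 12 pooled (black). In the AA list the share on chromosome 11 goes from 26.7% in the weakest to 75.1% in the strongest class, close to 29.2% and 78.6% on the pooled chromosomes.

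Sharing varied along the chromosome. It was highest between 10 and 20 Mb, where 58.5% of the AA peaks (50.7% to 65.95%) and 54.1% of the no-AA peaks (46.6% to 61.4%) were shared. It was lowest between 110 and 120 Mb, at 35.6% (30.3% to 41.1%) and 35.9% (30.6% to 41.5%). Within each list these intervals do not overlap. These segments also had the lowest and the highest implied background. In the AA list the order of the other segments was not strict. AA sharing was 42.0% between 20 and 30 Mb (background 0.236), 44.4% between 90 and 100 Mb (0.351) and 49.2% from 120 Mb (0.362). Split at 60 Mb, AA sharing was 46.3% before and 39.7% beyond, where the background was higher. No-AA sharing was 44.2% and 38.9%. A link between sharing and background was not tested. Of the strong peaks of chromosome 11 (p of at most 1e-10), 158 of 554 AA peaks (28.5%, 24.8% to 32.5%) overlapped no peak of the other list, against 23.9% of all strong AA peaks and 24.3% (22.4% to 26.2%) on the pooled chromosomes. The no-AA list had 100 of 443 (22.6%, 18.8% to 26.8%), against 20.7% and 19.6% (17.7% to 21.5%).

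The shared peaks made 1303 pairs that overlapped one to one. Only 9 AA peaks and 1 no-AA peak had 2 or more partners. Within the pairs the AA peak was longer in 1028 (78.9%), with medians of 1172 against 906 bp and a median log2 length ratio of 0.33 (0.28 to 0.36). The pooled chromosomes had a length ratio of 0.28 (0.27 to 0.30), and the difference of 0.044 (-0.0022 to 0.081) has an interval that reaches 0. The summits of a pair lay a median of 122 bp apart (113 to 134), and 43.9% lay within 100 bp, against 109 bp (104 to 113) and 47.3% on the pooled chromosomes.

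Tag density in pairs, as tags per kb of peak and 1000000 kept tags, was higher in the AA library in 79.3% of the pairs of chromosome 11, the highest share of the 19 autosomes, against 76.1% on the pooled chromosomes. With the lists exchanged the share would be 20.7%, the lowest of the 19. The median density was 2.34 in the AA and 1.98 in the no-AA library. The median log2 ratio was 0.23 (0.21 to 0.25; quartiles 0.04 and 0.45). On the pooled chromosomes it was 0.23 (0.21 to 0.24), a difference of 0.0036 (-0.021 to 0.027). The sign rests on the scaling, since without scaling the median was -0.40 and with scaling to the tags inside peaks -0.30. These scalings shift all pairs alike and leave the difference of medians between chromosomes as it is. The share of pairs with higher AA density, and its rank, can change with them and is given for kept tags only. For the authors' fold enrichment, which is not touched by them, the median log2 ratio was 0.17 (0.15 to 0.19) on chromosome 11 and 0.22 (0.20 to 0.24) on the pooled chromosomes, a difference of -0.05 (-0.07 to -0.02).

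Over 2-fold higher AA tag density was found in 17 pairs (1.30%, interval 0.762% to 2.08%), close to the 1.47% of all 26954 pairs of the genome. Over 2-fold lower density was found in 0 of 1303 pairs, which by the limit of 3 counts for a count of 0 allows a share of up to 0.230% (the Clopper-Pearson bound is 0.283%), where 0.0223% of all pairs were. Without division by length, 325 pairs (24.9%, 22.6% to 27.4%) had over 2-fold more scaled tags in the AA peak, against 20.5% of all pairs and 20.2% (18.96% to 21.5%) of those on the pooled chromosomes, an odds ratio of 1.31 (1.13 to 1.53). The AA peaks of chromosome 11 were also the longest relative to their partners of any autosome, by the median. Over 2-fold lower tags were found in 6 pairs (0.460%), against 0.408% of all pairs.

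The density ratio was larger in strong pairs. With pairs divided into 5 classes by the higher of their 2 scores over the whole genome, the median log2 ratio on chromosome 11 was, in ascending order of class, 0.19, 0.19, 0.21, 0.26 and 0.55. On the pooled chromosomes it was 0.14, 0.17, 0.20, 0.24 and 0.50. In the weakest class chromosome 11 had an interval of 0.15 to 0.22 and the pooled chromosomes 0.12 to 0.16, and in every class the intervals overlapped. In tags per peak the first 4 classes of chromosome 11 lay between 0.50 and 0.54 and the strongest at 0.79. The score that forms the classes is computed from the same tags, so the rise is a description. By segments of 10 Mb the median density ratio lay between 0.16 (50 to 60 Mb) and 0.26 (90 to 100 Mb), and it was above 0 in all 13.

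**Figure D5:**
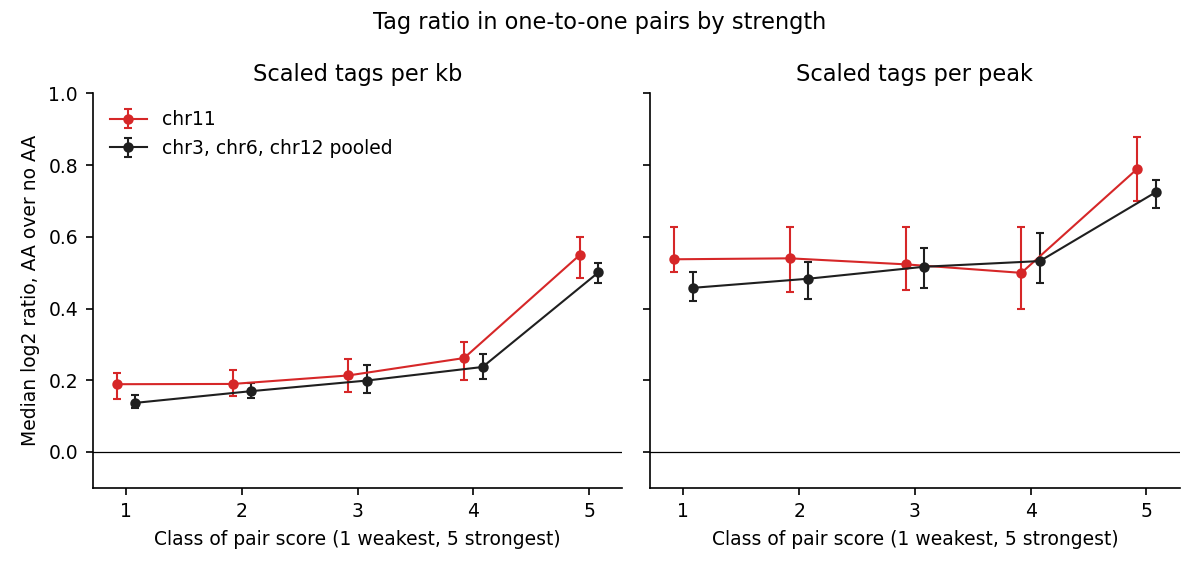
Median log2 ratio of AA to no-AA tags, scaled to kept tags, in one-to-one pairs of 5 score classes, with 95% intervals over pairs, per kb of peak (left) and per peak (right). Chromosome 11 (red) goes from 0.19 in the weakest to 0.55 in the strongest class per kb, and the pooled chromosomes (black) from 0.14 to 0.50.

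The pair of highest mean fold on chromosome 11 was AA peak chr11:7911776-7912749, with 36 tags at 22.77-fold, and its partner of 44 tags at 17.79-fold. Its log2 density ratio of 0.17 has an interval (-0.51 to 0.84) that holds the median of the pairs. Next came chr11:30974804-30975773, with 27 and 35 tags at 19.80-fold and 17.79-fold and a ratio of 0.08 (-0.70 to 0.85). After it came chr11:14066767-14067428, with 32 and 17 tags at 20.96-fold and 12.45-fold, a ratio of 1.10 (0.21 to 2.04). The other 7 of the first 10 began at 56272562, 98514284, 80647298, 10623465, 10756977, 43217674 and 110745655 in the AA list, with mean folds from 16.67 down to 15.10. Of these 10 pairs, 7 lay before 60 Mb, where peaks were fewer. Of all 1303 pairs, 573 lay there. The 10 were picked by fold, and the median fold of all peaks was higher before 60 Mb in both lists.

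The largest density ratio was sought among the 952 pairs in which either library reached 30 tags, and it was at chr11:80647298-80648114, which had 54 AA and 34 no-AA tags over nearly the same length (817 and 851 bp) and summits 2 bp apart. Its log2 ratio was 1.35 (0.71 to 2.02). It was followed by chr11:24781268-24782305 with 48 and 26 tags at 1.27 (0.55 to 2.02) and by chr11:98514284-98515020 with 52 and 34 tags at 1.20 (0.55 to 1.87). The pair at chr11:69277449-69279866 had 111 and 48 tags at 1.16 (0.66 to 1.68), with 2418 bp against 1515 bp. That at chr11:89006014-89007413 had 74 and 46 tags at 1.15 (0.60 to 1.72). All 5 intervals lie above the median of 0.23.

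At the low end stood chr11:21380168-21381137, with 17 AA and 45 no-AA tags and a log2 ratio of -0.73 (-1.63 to 0.10). The next, chr11:5069756-5070622, had the most tags of the 5, 34 against 106, and a ratio of -0.63 (-1.24 to -0.06). The other 3 were chr11:24154700-24156094 (26 and 42 tags, -0.63), chr11:58464359-58465188 (15 and 37 tags, -0.62) and chr11:12562768-12563609 (15 and 49 tags, -0.61). The AA scores of these 5 lay between 51.1 and 56.0, just above the cutoff of 50. In tags per peak the pair at 24154700 came to -0.06 (-0.83 to 0.68), so its low density went with the longer AA peak (1395 against 943 bp). These 5 and the 5 highest were picked as the ends of 952 pairs, and their intervals take no account of that.

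Unshared peaks of high fold were found in both lists. The 5 named of each held 19 to 41 tags (AA) and 25 to 34 tags (no AA), where the medians of all unshared peaks were 28 and 26. The AA list was led by chr11:12814436-12815003, with 19 tags (11.4 to 29.7) at 17.82-fold. Then came chr11:104233665-104234444 with 33 tags at 16.64-fold, chr11:24711128-24712262 with 41 tags at 15.54-fold, chr11:46723879-46724860 with 36 tags at 15.45-fold and chr11:33063787-33064552 with 25 tags at 15.09-fold. The no-AA list was led by chr11:41311953-41312732, with 27 tags (17.8 to 39.3), and chr11:40623400-40624106, with 30 tags (20.2 to 42.8), both at 16.90-fold. The next were chr11:13773107-13773873 with 29 tags at 15.12-fold, chr11:46168969-46169650 with 25 tags at 14.23-fold and chr11:13292459-13293336 with 34 tags at 13.34-fold. All 5 no-AA and 4 of the 5 AA peaks lay before 60 Mb. Of all peaks, shared or not, 1251 of 3103 AA and 1316 of 3216 no-AA peaks lay there. These peaks were picked by fold, and the median fold was higher before 60 Mb (7.92 and 7.12) than beyond it (6.55 and 6.08). The tags of the other library at these places are not in the lists, so no ratio is given.

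The longest peaks were broad and of low fold. In the AA list they were chr11:59997558-60004116 (6559 bp, 306 tags, 3.35-fold), chr11:120076532-120082754 (6223 bp, 166 tags, 3.32-fold) and chr11:117019344-117025186 (5843 bp, 181 tags, 5.23-fold). In the no-AA list they were chr11:8824683-8828414 (3732 bp, 136 tags, 3.71-fold), chr11:75264021-75267280 (3260 bp, 132 tags, 3.07-fold) and chr11:8495221-8498464 (3244 bp, 145 tags, 4.06-fold). The last was the single one of these 6 with an overlapping peak in the other list.

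At the threshold of the rule, the last AA peak left out (chr11:3186810-3187816) had 24 tags at 7.36-fold and the first one taken (chr11:3210813-3212169) 42 tags at 5.34-fold. In the no-AA list these were chr11:3197303-3199462 with 89 tags at 4.43-fold and chr11:3267563-3268455 with 28 tags at 4.62-fold.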

How the data were processed

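The submitters' processing notes name BWA 0.5.9-r16, MACS 1.4.2 and build mm9; aligner settings were not stated there. Peaks were called per library with no control, at a p cutoff of 1e-05 and 1 tag per position, per the file headers. The deposited tag counts are unscaled, the deposited score is 10 times the −log10 of p, and the deposited fold enrichment is a ratio to the caller's local background.

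Members and lists were chosen with earlier results of these data known. Peaks were matched at 1 bp of overlap and assigned to windows by midpoint. Pair tags were divided by length and by kept tags. Density used the end of the last peak, less the left-out start of chromosome 11. Named were the extreme windows, pairs, unshared peaks, longest peaks and gaps, by rank. Python 3.11.15, pandas 2.3.3, NumPy 2.4.6, SciPy 1.17.1 and matplotlib 3.10.9 were used, and the matching code was tested on simulated lists. No source names molecular identifiers, so tags may repeat a molecule. Alternatives were other cutoffs, overlaps, scalings, windows and comparison chromosomes.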

Additional observations from a re-analysis of the deposited data

Results flagged for a closer look

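The start of chromosome 11, left out of the description, carried many tags. In the AA-labelled list 8 peaks between bases 3001190 and 3187816 held 2091 tags (1.78% of the tags in peaks of the chromosome), and in the no-AA-labelled list 11 peaks between 3001035 and 3199462 held 2182 (1.93%). Most of these tags were in 2 AA-labelled peaks (1977 tags) and 3 no-AA-labelled peaks (1936 tags). The largest was chr11:3088485-3095979, with 1472 AA-labelled tags, where no peak of the described stretch had more than 306. The cause was not tested, and no input library was used here.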

How the results depend on the processing

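No paired analysis was possible because 1 library stands for each group; leaving one out would end the comparison. The value stayed within its interval in 68 alternatives and left it in the other 45. The sign held in 96 and turned in 17, in 8 of which the interval of the reported value had excluded 0. The cause was not tested. Some of these outcomes were fixed in advance and say nothing on stability. Scaling to other tag totals, or to none, cannot change the pair density difference between chromosomes. Exchanging the lists turns each sign by definition. The shared percentages of chromosome 11 cannot be negative, so their sign held in every alternative. Lists of equal length leave the AA list as it is, and keeping the start of chromosome 11 leaves the 1-Mb windows as they are. On chromosome 11, log2 values as follows are AA over no AA, or chromosome 11 over chromosomes 3, 6 and 12. With peaks of p at most 1e-10 and of at least 10-fold, in that order, the peak number went from -0.05 to 0.32 and 1.00, the peak density from 0.39 to -0.034 and -0.37 (AA list) and from 0.34 to -0.12 and -0.43 (no-AA list), the pair length from 0.33 to 0.16 and 0.21, and the pair tag density from 0.23 to 0.38 and 0.27. The window correlation went from 0.879 to 0.421 and 0.553, and to 0.728 in 250-kb and 0.933 in 5-Mb windows. The AA shared share went from 42.3% to 33.0% and 18.6%, and the no-AA share from 41.1% to 37.2% at 10-fold. Its difference from the compared chromosomes went from -3.07 points to -10.2 and -5.39, and that of the AA list from -4.66 to -10.5 at 1e-10. At 10-fold the pair density difference from those chromosomes was 0.052.

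With lists of equal length the peak number ratio was 0.11 and the shares 39.5% and 43.0%. At 50% reciprocal overlap the shares were 36.4% and 35.1% and the pair length ratio 0.25, and within 500 bp the no-AA share was 43.0%. Against chromosome 12 alone the share differences were -2.49 and -0.863 points, and at the same mix of peak scores, chosen after seeing the data, -1.88 and -0.733. Against all other autosomes the densities were 0.21 and 0.11, and against chromosome 6 alone the no-AA density was 0.26. Pair tag density became 0.57 as tags per peak, 0.17 as fold enrichment (difference from the compared chromosomes -0.045), -0.30 scaled to tags in peaks, -0.40 unscaled and 0.38 scaled to tags before duplicate removal. Pairs over 2-fold higher, counted again after seeing the data, went from 17 to 325, 25, 0, 0 and 58 in that order. With the lists exchanged, as the headers have it, the peak number was 0.052, its difference from the compared chromosomes -0.054, the pair length -0.33 and the pair tag density -0.23. Depth limits single windows, whose counting intervals are wide, and tags outside called peaks were not used.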
